A study of Mus musculus with 36 samples.

Results

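Gap junctions are cell contacts built from connexins. Connexin subunits assemble into hemichannels in the plasma membrane, and hemichannels of neighbouring cells dock to form a pore for ions and small metabolites. In the epidermis, Gja1 (connexin 43) is the most widely expressed connexin. Gjb2 (connexin 26) and Gjb6 (connexin 30) are usually low in resting interfollicular epidermis and are known to rise in wounded or hyperproliferative skin, and Gjb5 (connexin 31.1) belongs to a cluster of beta connexins of the suprabasal layers. Variants in human GJB2 and GJB6 are known causes of inherited deafness and of skin disease. Here the transcripts of these 4 epidermal connexin genes, taken by symbol from the 55358 genes of the counts table, were followed through 12 groups of murine keratinocytes.

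The cells were wild type (WT), PKP4-KO, in which Pkp4, the gene of the adherens junction protein plakophilin 4, lacks a critical exon, or Rescue, which are PKP4-KO cells with a stably selected lentiviral copy of human PKP4 tagged with EGFP. WT and PKP4-KO cells came from the epidermis of newborn mice, and neither received the vector or the selection that the Rescue cells did. Each line was kept, for 24 h or for 72 h, either in low calcium medium (LCM), which keeps keratinocytes undifferentiated and without mature junctions, or in high calcium medium (HCM), which starts differentiation and junction assembly, with 3 libraries in each of the 12 groups and 36 in all. Sample titles carry LD where a group is given here as 24 h and HD where it is given as 72 h. The samples are described as biological replicates, but how many mice or independent isolates stood behind a line was not given in the sources used here, so genotype, isolate and, in Rescue cells, vector and selection cannot be told apart.

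Levels are given as CPM, counts scaled to library size with edgeR's TMM factors, as mean ± SD with n = 3, and a gene was called changed at an adjusted p under 0.05 in edgeR's quasi-likelihood test over 15114 genes. Groups said not to overlap, or to lie wholly above or below another, are 3 libraries against 3. The share of all genes with such separation was not computed, so the separation carries no weight by itself. Total counts ran from 13602728 to 22467187 per library. The targeted gene Pkp4 was lower in PKP4-KO than in WT in 4 of 4 conditions, with 44 to 232 counts against 326 to 1443. Its counts stayed at 101 to 273 in Rescue, while the transgene row held 1902 to 15325 counts there and at most 113 in the other lines. Keratinocyte markers summed to 27448 to 78888 CPM in every library, against at most 11.6 for fibroblast, 6.67 for melanocyte, 6.40 for endothelial and 3.69 for immune markers without Cd68. Cd68 alone, a lysosomal gene that other cells also use, ran from 6.77 to 177 CPM. Summed with Cd68, the immune markers stood at 62.1 to 177 CPM in Rescue, 21.2 to 60.7 in WT and 6.86 to 47.1 in PKP4-KO. The cause of this difference between lines was not tested.

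A few libraries stood apart. Reads of 6 genes of nervous tissue (Gfap, Aqp4, Slc1a2 and Snap25 among them, a list chosen after the counts were seen) summed to 258 to 3413 counts in 5 libraries and to 0 to 18 in the other 31. These were WT 24 h LCM libraries 1 and 2, WT 24 h HCM library 1, Rescue 24 h HCM library 3 and Rescue 72 h HCM library 1. Gjb6 is also an astrocyte connexin, and its highest counts in WT, 16 and 14, lay in WT 24 h LCM library 1 and WT 24 h HCM library 1. Where these libraries enter a called comparison of Gjb6, the result is given with and without them. In addition, the TMM factors of the PKP4-KO 72 h HCM libraries (0.481 to 0.546) lay below those of all other libraries (0.705 to 1.39), so values of this group depend on the scaling more than others.

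The genes lie on 3 chromosomes (GRCm39, GENCODE vM39). Gja1 (ENSMUSG00000050953) spans chr10:56253241-56278609 on the plus strand. Gjb2 (ENSMUSG00000046352, chr14:57335919-57342240) and Gjb6 (ENSMUSG00000040055, chr14:57360757-57371087) are neighbours on the minus strand of chromosome 14, with 18.5 kb between them. Gjb5 (ENSMUSG00000042357, chr4:127248602-127252001, minus strand) lies on chromosome 4. In the canonical transcript of each of the 4 genes the whole protein is encoded by 1 exon. The sequences upstream of Gjb2 and Gjb6 are shown because these neighbours both had their highest group mean in Rescue 72 h LCM. They are the stretches before both the RefSeq and the GENCODE start of each gene, read 5′ to 3′ on the minus strand (RefSeq window, matched once to GRCm39). Capitals mark GC boxes, GGGCGG on either strand.
Gjb2 chr14:57342241-57342409: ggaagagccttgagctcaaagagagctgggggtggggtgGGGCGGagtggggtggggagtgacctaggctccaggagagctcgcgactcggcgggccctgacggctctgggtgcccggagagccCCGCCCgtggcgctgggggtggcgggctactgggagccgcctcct
Gjb6 chr14:57371088-57371318: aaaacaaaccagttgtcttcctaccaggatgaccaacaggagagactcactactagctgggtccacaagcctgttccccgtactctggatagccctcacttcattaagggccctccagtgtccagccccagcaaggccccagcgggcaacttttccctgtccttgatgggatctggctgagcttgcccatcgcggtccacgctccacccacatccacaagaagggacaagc

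The windows differed in base composition. Over the 300 bases around the RefSeq start, the window of Gjb2 held 70.0% G and C and 27 CpG dinucleotides, against 57.3% and 6 for Gjb6, 54.3% and 3 for Gjb5 and 47.7% and 8 for Gja1. The median over 32841 windows of this length was 52.7% and 7. The GC box occurred at 2 places in the window of Gjb2, starting 211 and 126 bases before the start, in none of the other 3 windows and in 35.7% of all. An AP-1 motif (TGANTCA, either strand) occurred in the window of Gja1 and in 7.81% of all, and TATAAA (either strand) in the window of Gjb5 and in 13.6% of all. These matches are descriptions of letters, with no measurement of binding.

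Gja1 had a median of 1763.5 counts per library, the highest of the 4 members, and ran from 546 to 3627. In WT its CPM was 81.7, 76.1 and 83.1 in 24 h LCM, 67.0, 63.2 and 64.0 in 24 h HCM, 48.0, 51.6 and 49.6 in 72 h LCM and 66.5, 63.5 and 56.0 in 72 h HCM. In PKP4-KO the libraries read 90.7, 101 and 120.4 in 24 h LCM, 134, 152 and 181 in 24 h HCM, 152, 178 and 170.5 in 72 h LCM and 149.7, 166 and 142 in 72 h HCM. Every PKP4-KO library was above every WT library of its condition. No share of all genes separated in this way was computed, and 40.2% to 51.8% were called between PKP4-KO and WT. The Rescue means were 119.5 ± 2.86, 111 ± 10.4, 98.4 ± 12.7 and 98.01 ± 4.36 in the same order of conditions, so all Rescue groups lay above WT without overlap.

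Gjb2 had the widest range, from 179 to 9034 counts, and its highest group mean was 34.8 times its lowest. WT libraries read 9.72, 10.8 and 10.8 CPM in 24 h LCM, 13.4, 14.1 and 9.12 in 24 h HCM, 14.9, 13.5 and 19.7 in 72 h LCM and 20.2, 23.8 and 30.3 in 72 h HCM. PKP4-KO libraries read 29.0, 20.4 and 20.04 in 24 h LCM and 14.2, 15.8 and 21.7 in 24 h HCM. At 72 h they reached 88.0, 113 and 84.7 in LCM and 399, 384 and 254 in HCM. In Rescue they read 53.5, 63.7 and 47.0 in 24 h LCM, 48.4, 53.2 and 45.0 in 24 h HCM, 331, 408 and 352 in 72 h LCM and 70.3, 65.3 and 81.7 in 72 h HCM. The highest level in PKP4-KO was thus in HCM and the highest in Rescue was in LCM, both at 72 h, and these 2 groups overlapped each other and no other group.

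Gjb5 moved within narrower limits, 67 to 335 counts. It was highest in WT 24 h HCM (17.2, 23.3 and 16.4 CPM) and lowest in Rescue 72 h HCM (5.46, 3.74 and 4.71 CPM). The WT means were 13.8 ± 2.25, 19.0 ± 3.76, 8.79 ± 1.34 and 15.0 ± 3.59 CPM in 24 h LCM, 24 h HCM, 72 h LCM and 72 h HCM. Those of PKP4-KO were 6.49 ± 0.806, 7.65 ± 1.80, 5.27 ± 2.38 and 9.53 ± 0.390 CPM, and those of Rescue 12.03 ± 3.35, 11.2 ± 0.771, 9.76 ± 1.36 and 4.64 ± 0.866 CPM. PKP4-KO libraries were below all WT libraries except in 72 h LCM, where one PKP4-KO library (7.96 CPM) lay among the WT values.

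Gjb6 was near the detection limit outside Rescue cells. In 20 of 36 libraries it had 3 counts or fewer, and a count of 0 in a library allows up to 0.110 to 0.436 CPM (3 counts, counting error only). It had 16, 2 and 0 counts in WT 24 h LCM, 14, 0 and 0 in WT 24 h HCM and at most 2 in WT libraries of 72 h. In PKP4-KO it had 0 in each of the 24 h LCM libraries, 0, 2 and 0 in 24 h HCM, 18, 4 and 1 in 72 h LCM and 1, 2 and 4 in 72 h HCM. Rescue libraries held 22, 22 and 3 counts in 24 h LCM, 28, 29 and 11 in 24 h HCM, 276, 105 and 188 in 72 h LCM and 76, 67 and 38 in 72 h HCM. In Rescue 72 h LCM this came to 9.23 ± 1.31 CPM, above every other library. Gjb6 passed the filter on low counts only through the groups where it was high, so its pass says nothing by itself.

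**Figure D1:**
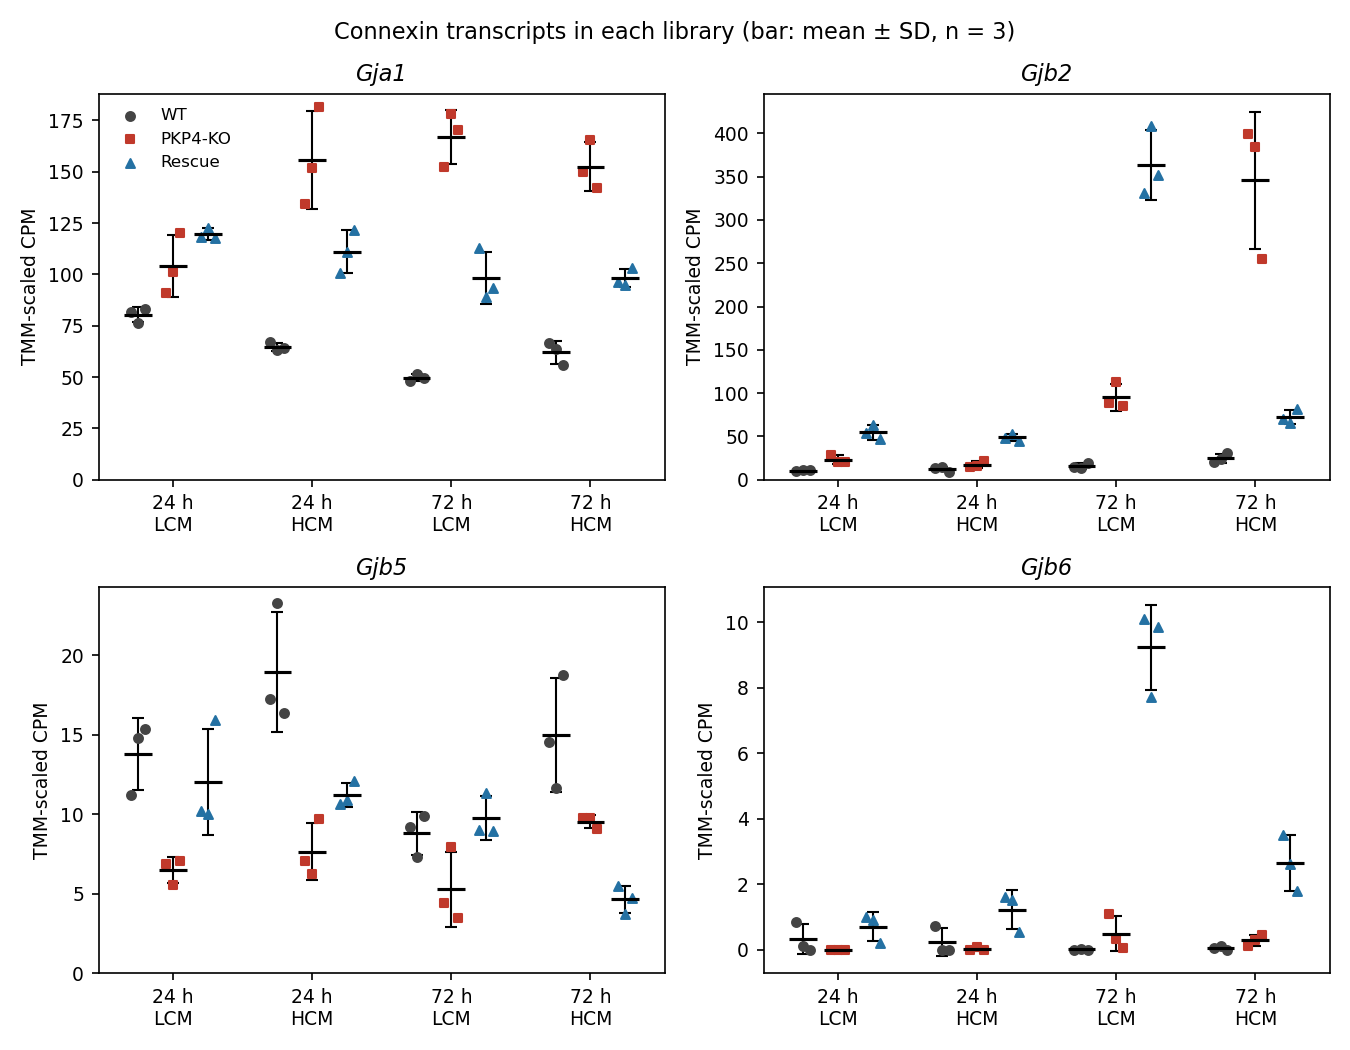
TMM-scaled CPM of the 4 connexin genes (linear axes) in the 36 libraries, by condition, with WT as circles, PKP4-KO as squares, Rescue as triangles and the mean ± SD (n = 3) as bars. Gjb2 peaks in PKP4-KO 72 h HCM (346 ± 79.5) and Rescue 72 h LCM (364 ± 40.04), and Gjb6 in Rescue 72 h LCM (9.23 ± 1.31).

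Per kb of gene length (deposited lengths), the order of the 4 members changed with the line. In WT 24 h LCM, Gjb5 and Gja1 stood at 8.01 ± 1.31 and 7.83 ± 0.359 CPM per kb, a difference within their spread, and Gjb2 at 4.35 ± 0.266. In WT 24 h HCM, Gjb5 (11.01 ± 2.18) lay above Gja1 (6.31 ± 0.195) and Gjb2 (5.09 ± 1.13). At 72 h in WT, Gjb2 and Gjb5 did not differ beyond their spread, with 6.67 ± 1.35 and 5.11 ± 0.780 in LCM and 10.3 ± 2.13 and 8.70 ± 2.09 in HCM. In PKP4-KO at 24 h, Gja1 stood at 10.2 ± 1.47 in LCM, within the spread of Gjb2 (9.61 ± 2.103), and at 15.2 ± 2.32 in HCM, above Gjb2 (7.17 ± 1.65). Gjb2 was the highest of the 4 in 72 h PKP4-KO cells, with 39.6 ± 6.48 CPM per kb in LCM and 144 ± 33.0 in HCM, and in all 4 Rescue conditions, with 20.3 ± 1.71 to 151 ± 16.6. Gjb6 was the lowest of the 4 in 12 of 12 groups. This order depends on the length used, and with the longest annotated transcript in its place 24 of 48 values moved by more than 1 SD. Gja1 then stood above Gjb2 in PKP4-KO 72 h LCM (29.2 against 25.7 CPM per kb), Rescue 24 h LCM (20.9 against 14.7) and Rescue 24 h HCM (19.4 against 13.1). It also stood above Gjb5 in WT 24 h LCM (14.1 against 7.89), in WT 24 h HCM (11.3 against 10.8) and in WT at 72 h (8.71 against 5.03 in LCM and 10.9 against 8.56 in HCM). Gjb2 was the highest of the 4 with either length in PKP4-KO 72 h HCM and in both Rescue groups of 72 h.

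**Figure D2:**
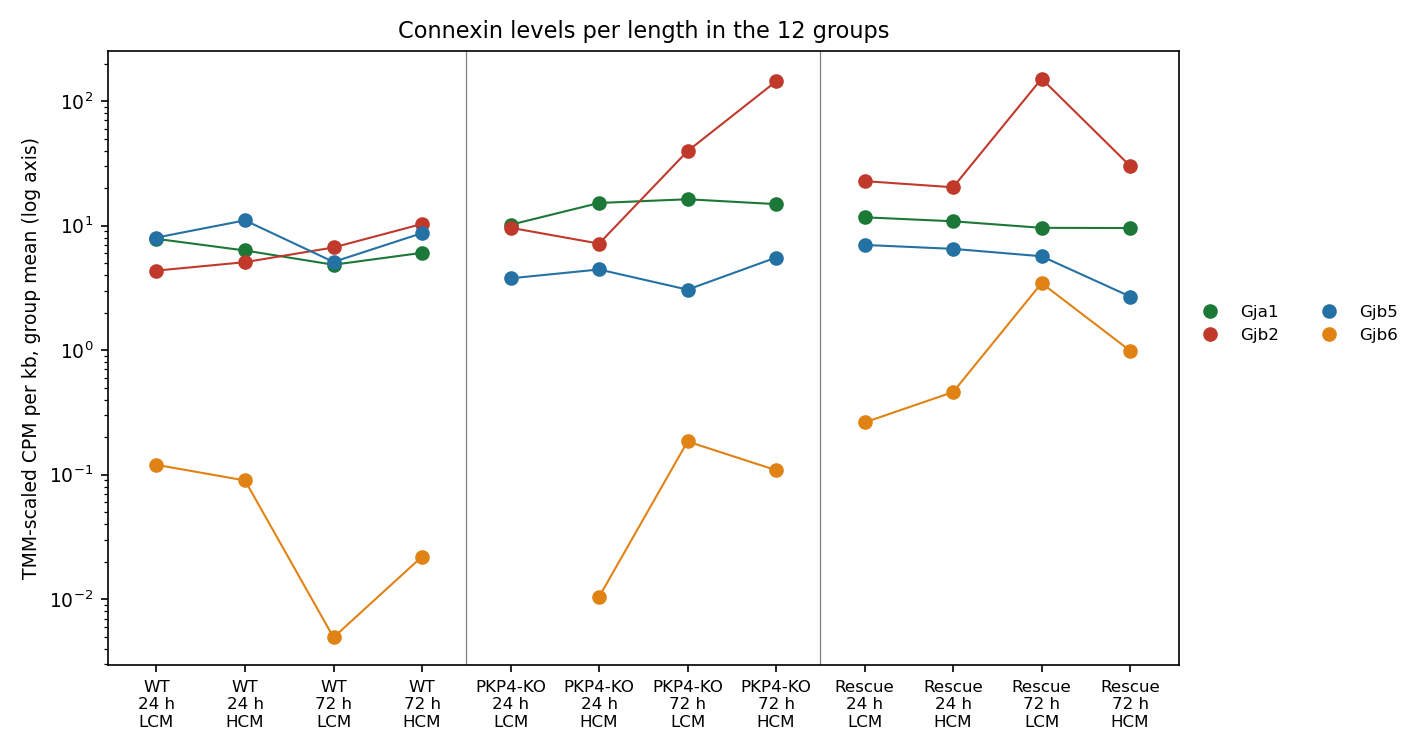
Group means of TMM-scaled CPM per kb (log axis) for the 4 members in the 12 groups. With the deposited lengths plotted here Gjb2 is the highest in 72 h PKP4-KO and in Rescue (with longest transcripts Gja1 is higher in PKP4-KO 72 h LCM and both Rescue 24 h groups), and a Gjb6 point is missing where all 3 libraries held 0 counts (PKP4-KO 24 h LCM).

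The comparison of PKP4-KO with WT asks how the loss of Pkp4 bears on the connexins. Gja1 was higher in PKP4-KO in 4 of 4 conditions and Gjb5 lower in 4 of 4, while Gjb2 was higher in 3 of 4. Gja1 differed by a log2 fold change of 0.38 ± 0.12 (SE) in 24 h LCM (adjusted p = 0.0118), 1.27 ± 0.12 in 24 h HCM (7.4e-10), 1.75 ± 0.12 in 72 h LCM (1.91e-12) and 1.30 ± 0.12 in 72 h HCM (6.73e-10). The 24 h LCM difference was lost in 2 of 6 fits with 1 library left out, among them that without PKP4-KO library 3 (0.26, adjusted p = 0.107). It was also lost without the 5 libraries with nervous system reads (0.33, adjusted p = 0.247), and without TMM factors it was 0.15. Gjb2 was 2.21-fold higher in 24 h LCM (adjusted p = 6.67e-05), 5.94-fold in 72 h LCM (9.63e-11) and 14.0-fold in 72 h HCM (9.73e-14). In 24 h HCM it differed by 1.41-fold, with no overlap of the groups but an adjusted p of 0.056. Gjb5 was 2.12-fold lower in 24 h LCM (adjusted p = 0.000771), 2.48-fold in 24 h HCM (6.55e-05), 1.67-fold in 72 h LCM (0.015) and 1.57-fold in 72 h HCM (0.0314). At 72 h the calls of Gjb5 depended on single libraries: leaving out 1 took the adjusted p over 0.05 in 3 of 6 cases in LCM (highest 0.105, without PKP4-KO library 3) and in 5 of 6 in HCM (highest 0.139, without WT library 3).

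Gjb6 was called in 2 of the 4 conditions, in opposite directions and on few reads. In 24 h LCM, PKP4-KO had 0 counts against 18 in WT (at least 1.92-fold lower against the floor of 3 counts per library, adjusted p = 0.0264). Of those 18, 16 lay in the WT library with the most nervous system reads and 2 in another of those libraries, and without them both groups stood at 0 counts and nothing was left to test. In 72 h LCM, PKP4-KO had 23 counts against 1, a ratio of 32.0 with an exact 95% counting interval of 5.19 to 1317 (adjusted p = 0.0163), and 18 of the 23 counts came from 1 library. Without that library the adjusted p was 0.185.

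Called in these comparisons were 4 of the 4 members in 24 h LCM, where 40.2% of all genes tested were called, 2 in 24 h HCM (42.8%), 4 in 72 h LCM (45.1%) and 3 in 72 h HCM (51.8%). With shares this high among all genes, a member being called is in itself little. Without TMM factors the median log2 fold change of all genes in 72 h HCM moved from -0.07 to -0.83, and Gja1 was then at 0.51, Gjb2 at 3.06 and Gjb5 at -1.38 in place of 1.30, 3.80 and -0.65. Relative to that median they stood at 1.34, 3.89 and -0.55 without and 1.37, 3.88 and -0.57 with TMM factors. The genes and the median shift together when libraries are rescaled, so these values cannot tell which scaling is right.

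The comparison of Rescue with WT asks whether the connexins returned to the WT level when PKP4 was put back. Gja1 and Gjb2 were above WT in Rescue in 4 of 4 conditions. Gja1 was 1.49-fold higher in 24 h LCM (adjusted p = 0.000482, and 0.0869 without the 5 libraries), 1.72-fold in 24 h HCM (1.2e-05), 1.98-fold in 72 h LCM (1.49e-07) and 1.58-fold in 72 h HCM (8.05e-05). Gjb2 was 5.23-fold higher in 24 h LCM (1.52e-09), 3.99-fold in 24 h HCM (3.82e-08), 22.6-fold in 72 h LCM (2.02e-14) and 2.92-fold in 72 h HCM (1.48e-06). Gjb5 did not differ detectably in LCM (log2 fold change -0.20, 95% interval -0.70 to 0.30, at 24 h and 0.15, -0.35 to 0.65, at 72 h). In HCM it was 1.69-fold lower at 24 h (adjusted p = 0.0216, and 0.0587 without the 5 libraries) and 3.23-fold lower at 72 h (6.82e-06).

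Gjb6 was higher in Rescue than in WT at 72 h, with 569 counts against 1 in LCM (ratio 638, counting interval 114 to 25239, adjusted p = 1.12e-05) and 181 against 3 in HCM (ratio 38.6, 13.01 to 189, adjusted p = 0.00173). Of the 181 counts, 76 lay in Rescue 72 h HCM library 1, and without the 5 libraries the adjusted p was 0.000688. The libraries that kept Gjb6 for testing were mostly Rescue, so these p-values are no independent support. At 24 h Gjb6 was not called, with 47 against 18 counts in LCM (adjusted p = 0.444) and 68 against 14 in HCM (0.109). Without the 5 libraries the 24 h HCM comparison, then 28 and 29 counts in Rescue against 0 in both WT libraries, was called (adjusted p = 0.00169), and the 24 h LCM comparison had an adjusted p of 0.0517. Called in Rescue against WT were 2 of the 4 members in 24 h LCM (24.8% of all genes), 3 in 24 h HCM (23.2%), 3 in 72 h LCM (32.4%) and 4 in 72 h HCM (36.2%).

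Set directly against PKP4-KO, Rescue had lower Gja1 in 3 of 4 conditions, by -0.49 ± 0.12 in 24 h HCM (adjusted p = 0.00128), -0.76 ± 0.12 in 72 h LCM (6e-06) and -0.64 ± 0.12 in 72 h HCM (3.64e-05) on the log2 scale, and 0.20 ± 0.12 in 24 h LCM (0.208). Gjb2 was higher in Rescue in 3 conditions, 2.37-fold in 24 h LCM (adjusted p = 1.94e-05), 2.83-fold in 24 h HCM (8.35e-07) and 3.81-fold in 72 h LCM (1.44e-08), and 4.77-fold lower in 72 h HCM (6.56e-10). Gjb5 followed the same order of signs. It was 1.85-fold higher in 24 h LCM (adjusted p = 0.00556) and 1.85-fold higher in 72 h LCM (0.00451), not called in 24 h HCM (1.46-fold, 0.0696) and 2.06-fold lower in 72 h HCM (0.000822).

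In 72 h HCM these values depend on the scaling. Without TMM factors the median log2 fold change of all genes in Rescue against PKP4-KO moved from 0.20 to 1.37, and Gja1 and Gjb5 turned from lower to higher (log2 fold change 0.54 and 0.13). Relative to the median of all genes Gja1 was at -0.84 with and -0.83 without TMM factors, Gjb5 at -1.24 and -1.24, and Gjb2 at -2.45 and -2.44. A gene and the median shift together under rescaling, so this near-equality was fixed in advance. The direction of Gja1 and Gjb5 here therefore rests on the scaling chosen.

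Gjb6 was higher in Rescue than in PKP4-KO in 4 of 4 conditions. Gjb6 was kept for testing by its highest libraries, most of them Rescue, so the adjusted p-values here are no independent support. In 24 h LCM it had 47 counts against 0, at least 4.19-fold higher (adjusted p = 0.0047). The ratios were 35.5 in 24 h HCM (68 against 2 counts, interval 9.47 to 299, adjusted p = 0.00311), 19.95 in 72 h LCM (569 against 23, 13.2 to 31.7, 0.000911) and 8.92 in 72 h HCM (181 against 7, 4.24 to 22.5, 0.0129). Without the 5 libraries the adjusted p of the HCM comparisons was 0.000247 at 24 h and 0.00695 at 72 h. Members called in Rescue against PKP4-KO were 3 of 4 in 24 h LCM (33.7% of all genes), 3 in 24 h HCM (40.8%), 4 in 72 h LCM (41.6%) and 4 in 72 h HCM (66.7%). The PKP4-KO and the WT libraries each enter 2 of these sets of comparisons, and so do the Rescue libraries.

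**Figure D3:**
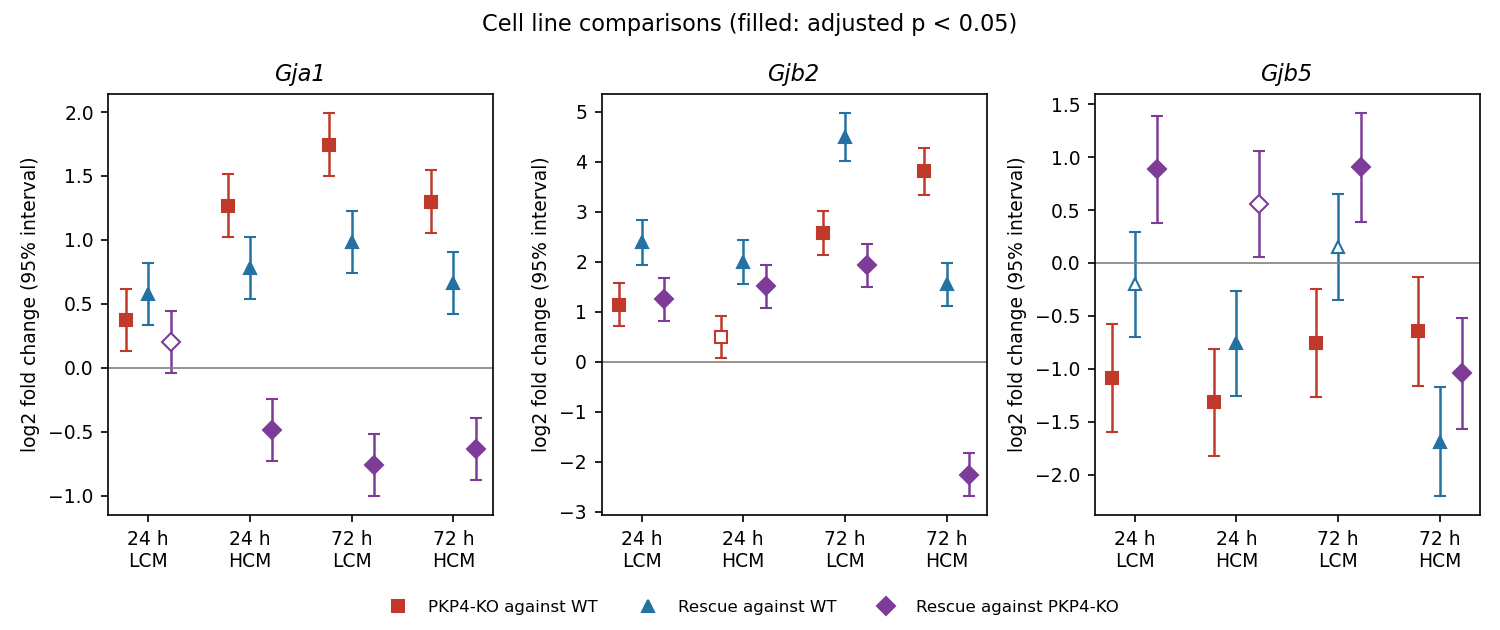
Log2 fold changes with 95% intervals for Gja1, Gjb2 and Gjb5 between cell lines in each condition, filled where the adjusted p is under 0.05. Gjb6 is left out because its counts outside Rescue were near the detection limit. Gja1 and Gjb2 lie above 0 against WT in both other lines, and Rescue against PKP4-KO for Gjb2 turns from 1.93 in 72 h LCM to -2.25 in 72 h HCM.

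The addition of calcium, which triggers junction assembly, changed the connexins little at 24 h. In WT at 24 h none of the 4 members was called (14.2% of all genes were), although 1 of the 4, Gja1, had an unadjusted p under 0.05 (0.0134). The groups of Gja1 and Gjb5 did not overlap, for which no share over all genes was computed. In PKP4-KO at 24 h Gja1 rose 1.496-fold in HCM (adjusted p = 0.0041), 1 of 4 members where 2.83% of all genes were called. The log2 fold change lay between 0.46 and 0.70 under the alternatives, but the call was lost without TMM factors (adjusted p = 0.184), with no filter (0.0592) and in the fit of only these groups (0.32). In Rescue at 24 h none was called (12% of all genes), and 0 of 4 had an unadjusted p under 0.05 (0.372 to 0.68). DESeq2 called none of the members in these WT and Rescue comparisons either.

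At 72 h the lines went apart. In WT, Gjb2 was 1.54-fold higher in HCM (adjusted p = 0.0289) and Gjb5 1.70-fold (0.0233), 2 of 4 members where 21.4% of all genes were called. Both rested on single libraries: the adjusted p reached 0.184 for Gjb2 and 0.15 for Gjb5 without WT 72 h HCM library 3, and that of Gjb2 was 0.0589 without the 5 libraries. In PKP4-KO, Gjb2 was 3.63-fold higher (1.02e-07) and Gjb5 1.81-fold (0.00994), again 2 of 4 members (32.6% of all genes), with an adjusted p of 0.0914 for Gjb5 without PKP4-KO 72 h LCM library 3. In Rescue both fell, Gjb2 by -2.33 ± 0.21 (adjusted p = 3.24e-09) and Gjb5 by -1.07 ± 0.25 (0.00189) on the log2 scale, 2 of 4 members (24.9% of all genes). Gjb6 in Rescue went from 569 counts in LCM to 181 in HCM, a ratio of 0.279 (counting interval 0.235 to 0.331) with no overlap of the groups but an adjusted p of 0.115. Without the 5 libraries the adjusted p was 0.0484. The Rescue 72 h LCM libraries were among those that kept Gjb6 for testing, so neither adjusted p is independent support. Gja1 was not called between media at 72 h, with log2 fold changes of 0.32 (adjusted p = 0.053), -0.13 (0.407) and -0.01 (0.978) in WT, PKP4-KO and Rescue. Without TMM factors the median of all genes in PKP4-KO at 72 h moved from -0.08 to -0.77, and Gja1 was then called lower in HCM (-0.82, adjusted p = 0.000783), Gjb2 was higher by 1.18 and Gjb5 was not called (0.22, 0.358). Relative to that median, which shifts with the genes, Gja1 stood at -0.05 on both scales, Gjb2 at 1.94 on both and Gjb5 at 0.99 without and 0.95 with TMM factors.

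**Figure D4:**
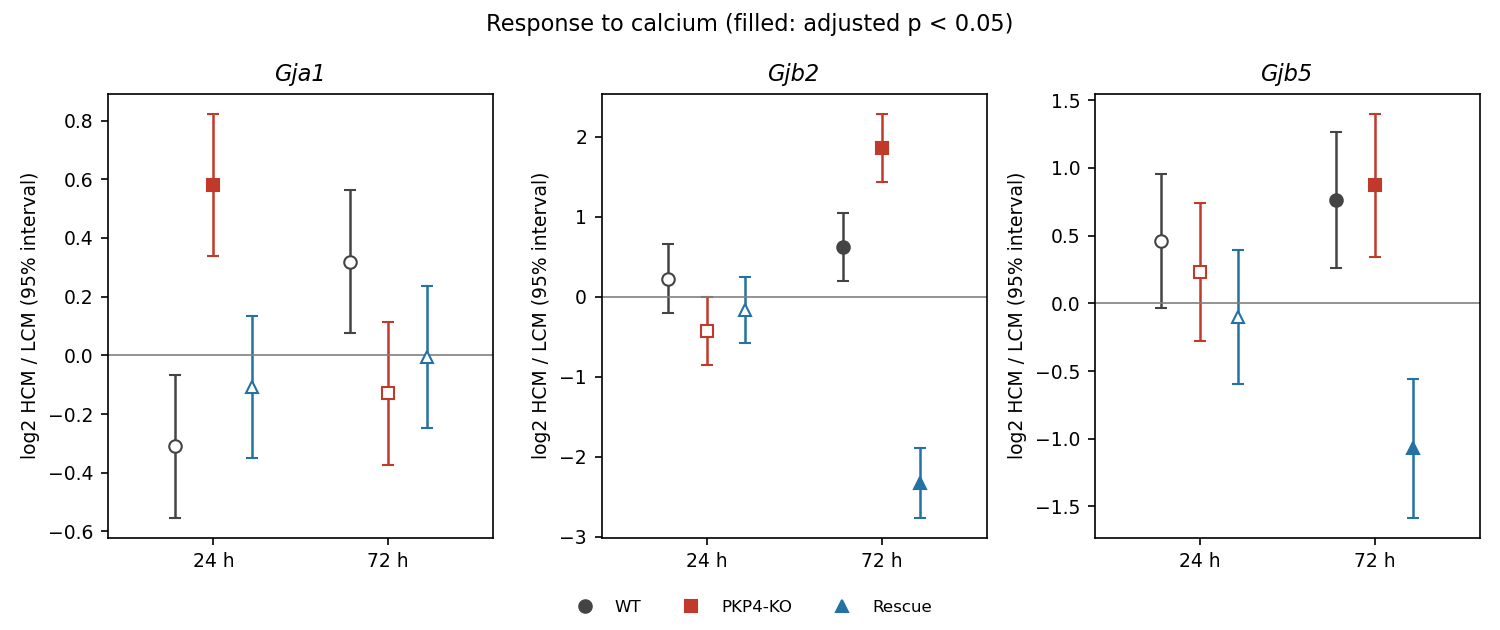
Log2 ratio of HCM to LCM with 95% intervals for Gja1, Gjb2 and Gjb5 in WT (circles), PKP4-KO (squares) and Rescue (triangles) at 24 h and 72 h, filled where the adjusted p is under 0.05. At 72 h Gjb2 rises in WT (0.62) and PKP4-KO (1.86) and falls in Rescue (-2.33).

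These responses were then compared with each other in 1 model. The calcium response of Gjb2 at 72 h was larger in PKP4-KO than in WT by 1.24 ± 0.29 on the log2 scale (adjusted p = 0.00771, 1 of 4 members where 5.74% of all genes were called). In Rescue it was lower than in WT by -2.95 ± 0.29 (5e-08), and that of Gjb5 by -1.83 ± 0.35 (0.000523), 2 of 4 members (14.6% of all genes). Rescue against PKP4-KO, a contrast added after the values were seen, gave -4.19 ± 0.30 for Gjb2 (5.4e-11) and -1.94 ± 0.36 for Gjb5 (0.000173), 2 of 4 members (31.5% of all genes). At 24 h the response of Gja1 was larger in PKP4-KO than in WT by 0.89 ± 0.17 (0.00124, 1 of 4 members, 4.02% of all genes) and smaller in Rescue than in PKP4-KO by -0.69 ± 0.17 (0.028, 1 of 4, 1.41%). In the Rescue against WT contrast at 24 h none of the members was called (0.0662% of all genes), with 0 of 4 at an unadjusted p under 0.05 (0.112 to 0.439), and DESeq2 called none.

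The calcium response also changed with time. From 24 h to 72 h that of Gjb2 rose in PKP4-KO by 2.28 ± 0.29 (adjusted p = 1.18e-05) and fell in Rescue by -2.16 ± 0.29 (5.52e-06). That of Gja1 fell in PKP4-KO by -0.71 ± 0.17 (0.00588) and rose in WT by 0.63 ± 0.17 (0.0249). This gave 1 of 4 members in WT (4.35% of all genes), 2 in PKP4-KO (11%) and 1 in Rescue (12.5%). The WT change of Gja1 was lost without the 5 libraries (adjusted p = 0.227), and the 24 h difference of Gja1 between Rescue and PKP4-KO likewise (0.0599).

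With time in culture, Gjb2 was called higher in 5 of 6 comparisons. From 24 h to 72 h it was 4.12-fold higher in PKP4-KO in LCM (adjusted p = 1.6e-08) and 20.1-fold in HCM (9.88e-15), 6.64-fold higher in Rescue in LCM (2.31e-10) and 1.48-fold in HCM (0.0392, and 0.249 without the 5 libraries). The call in Rescue in HCM was lost in 5 of 6 fits with 1 library left out. In WT Gjb2 was 2.03-fold higher in HCM (0.000913) and 1.53-fold in LCM (0.0566). Gja1 fell in WT in LCM by -0.69 ± 0.12 (0.00022) and rose in PKP4-KO in LCM by 0.68 ± 0.12 (6.33e-05, but 0.29 with an adjusted p of 0.25 without TMM factors). Gjb5 fell in Rescue in HCM by -1.27 ± 0.25 (0.000317). Gjb6 rose in Rescue in LCM 12.4-fold (569 against 47 counts, interval 9.21 to 17.1, adjusted p = 0.00777), and in PKP4-KO in LCM at least 2.95-fold (23 against 0 counts, 0.0172). In that last comparison 18 of the counts came from 1 library, without which the adjusted p was 0.15. Gjb6 was kept for testing by its highest libraries, those of Rescue 72 h LCM among them. The adjusted p-values of Gjb6 over time are therefore no independent support.

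Over the 6 time comparisons the members called were 1 of 4 in WT in LCM (9.96% of all genes), 1 in WT in HCM (17.9%), 3 in PKP4-KO in LCM (26.2%), 1 in PKP4-KO in HCM (55.8%), 2 in Rescue in LCM (9.81%) and 2 in Rescue in HCM (24.3%). Gjb6 is counted among the members called in PKP4-KO and in Rescue in LCM. The scaling bears on PKP4-KO in HCM here as well. Without TMM factors the median of all genes moved by -1.06, and Gja1 and Gjb5 were then called lower at 72 h (-1.09 and -0.73). Relative to the median of all genes, which shifts with them, they stood at 0.07 and 0.43, against 0.06 and 0.42 with TMM factors.

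Across the family, 16 other connexin genes and 3 pannexin genes, whose proteins form related membrane channels, were in the table, of which 8 passed the filter. Panx1 reached 1217 counts and Gjc1 165, while Gja4, Gjb1, Gjd3 and Panx3 passed with at most 34. Among the genes that did not pass, such as Gja3, Gja5, Gja10, Gjc3, Gjd2 and Panx2, the highest count was 33. Of the 8 that passed, 1 was higher and 2 lower in PKP4-KO than in WT in 24 h LCM, where 40.2% of all genes were called, 2 and 2 in 24 h HCM (42.8%), 0 and 2 in 72 h LCM (45.1%) and 1 and 2 in 72 h HCM (51.8%).

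Gjc1 was called lower in PKP4-KO in 3 of the 4 conditions (log2 fold change -0.78 to -1.73). Panx1 was called higher in PKP4-KO in 24 h HCM (0.56, adjusted p = 0.0041) and not in the other 3 conditions (-0.30 to 0.33). Among genes within 1 Mb of Gjb2 and Gjb6, 6 of 21 tested were higher and 4 lower in PKP4-KO than in WT in 72 h LCM. Their median log2 fold change was 0.24, where 45.1% of all genes were called. In 72 h HCM 4 were higher and 6 lower, with a median of -0.11 (51.8% of all genes). At 24 h the counts were 4 and 1 in LCM (median 0.22, 40.2% of all genes) and 4 and 4 in HCM (0.27, 42.8%). In Rescue against WT in 72 h LCM, 2 of 21 were higher and 0 lower, with a median of 0.14, where 32.4% of all genes were called. In 72 h HCM 5 were higher and 2 lower (median 0.04, 36.2% of all genes). At 24 h the counts were 2 and 0 in LCM (0.02, 24.8%) and 2 and 0 in HCM (-0.01, 23.2%).

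Gjb2 and Gjb6 shared part of their pattern. Over the 12 group means of log2 CPM their Pearson correlation was 0.70, against 0.53 for Gja1 and Gjb2 and -0.50 for Gja1 and Gjb5. These values describe groups that share cell lines and scaling. Gjb6 had 3 counts or fewer in 20 of 36 libraries, so its low group means carry little information in this correlation. Both genes were highest in Rescue 72 h LCM. In PKP4-KO 72 h HCM, where Gjb2 stood at 346 ± 79.5 CPM, Gjb6 had 1 to 4 counts. The counts of Gjb6 were 0.0318% to 0.178% of those of Gjb2 in PKP4-KO 72 h HCM and 1.89% to 3.06% in Rescue 72 h LCM, so the ratio of the neighbours was not constant between the groups in which Gjb2 was highest.

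The genes most like each member over the 12 group means were named by rule as the 3 protein-coding genes of highest Pearson correlation. For Gjb2 they were Spink7, a protease inhibitor gene (0.99), Alox12, a lipoxygenase gene (0.97), and Mocos, a molybdenum cofactor sulfurase gene (0.95). Spink7 was highest in PKP4-KO 72 h HCM (50.9 ± 8.65 CPM) and Rescue 72 h LCM (49.0 ± 34.8). Alox12 reached 14.5 ± 3.49 and 4.54 ± 0.420 CPM in the same groups and Mocos 8.89 ± 1.25 and 4.11 ± 0.413. Over all 36 libraries the correlations were 0.97, 0.94 and 0.93. For Gja1 they were Zbtb25 (0.94), Mettl15 (0.94) and Syce2 (0.93), for Gjb5 Gorasp2 (0.91), Cd81 (0.90) and Sdc1 (0.89), and for Gjb6 Apbb1ip (0.96), Trim15 (0.94) and Eml2 (0.94), of which Apbb1ip and Trim15 had group means of at most 0.445 and 1.82 CPM. Syce2 and Apbb1ip fell to ranks 143 and 196 over the 36 libraries.

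Krt1 and Krt10 were high together with Gjb2 in some groups and not in others. Krt1 and Krt10, the early suprabasal keratins, were highest in PKP4-KO 72 h HCM, at 3750 and 4435 CPM, where Gjb2 stood at 346. In Rescue 72 h LCM, where Gjb2 stood at 364 CPM, Krt1 and Krt10 were at 3.46 and 12.7 CPM. In Rescue 72 h HCM they were at 17.8 and 423 CPM with Gjb2 at 72.4, and in WT 72 h HCM at 39.7 and 533 CPM with Gjb2 at 24.8. Grhl3, a transcription factor of barrier formation, was highest in Rescue 72 h LCM (144.5 CPM) and stood at 53.4 CPM in PKP4-KO 72 h HCM. A list of 13 keratinocyte fate genes held basal genes beside differentiation genes, so its counts and medians give no direction of differentiation. Of these 13, 7 were higher and 2 lower in PKP4-KO than in WT in 72 h HCM (median log2 fold change 0.93, 51.8% of all genes called). In Rescue against WT in 72 h LCM, 5 were higher and 3 lower (median 0.34, 32.4% of all genes called). Krt1, Krt10 and Grhl3 were picked from this list for their values beside those of Gjb2. They do not stand for its other genes, whose values are not given here. In bulk libraries a change in the share of differentiated cells and a change of transcript per cell cannot be told apart.

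The junction partners and regulators of connexins, a list of 18 genes that all passed the filter, were called lower more often than higher in PKP4-KO. In 24 h LCM 1 was higher and 12 were lower (40.2% of all genes called, 2975 higher and 3108 lower), in 24 h HCM 1 and 10 (42.8%, 3122 and 3350), in 72 h LCM 1 and 13 (45.1%, 3218 and 3591), and in 72 h HCM 0 and 14 (51.8%, 3307 and 4524). The medians of the list were -0.54, -0.41, -0.65 and -0.92 on the log2 scale, beside medians of all genes between -0.07 and 0.02. Among those called lower in all 4 conditions were Tjp1, a scaffold of tight and gap junction plaques, Csnk1d and Akt1, kinases, Cav1 of caveolae, the actin binders Dbn1 and Ezr, and Cdh1 and Ctnna1, E-cadherin and alpha-catenin of adherens junctions.

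Tjp1, whose protein ZO-1 binds the tail of connexin 43, differed by a log2 fold change of -2.72 to -1.75. It stood at 12.6 to 16.4 CPM in the PKP4-KO groups, 50.04 to 108 in WT and 48.4 to 86.7 in Rescue. Dbn1 differed by -4.15 to -1.22 from a low level, at most 7.74 CPM in WT. In Rescue against PKP4-KO 10 partners were higher and 0 lower in 24 h LCM (33.7% of all genes called), 9 and 2 in 24 h HCM (40.8%), 12 and 0 in 72 h LCM (41.6%) and 17 and 0 in 72 h HCM (66.7%), the last with a median of 1.26 beside 0.20 for all genes. Against WT, Rescue had 2 higher and 1 lower, 2 and 2, 4 and 1, and 5 and 0 in the same order, where 24.8%, 23.2%, 32.4% and 36.2% of all genes were called.

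**Figure D5:**
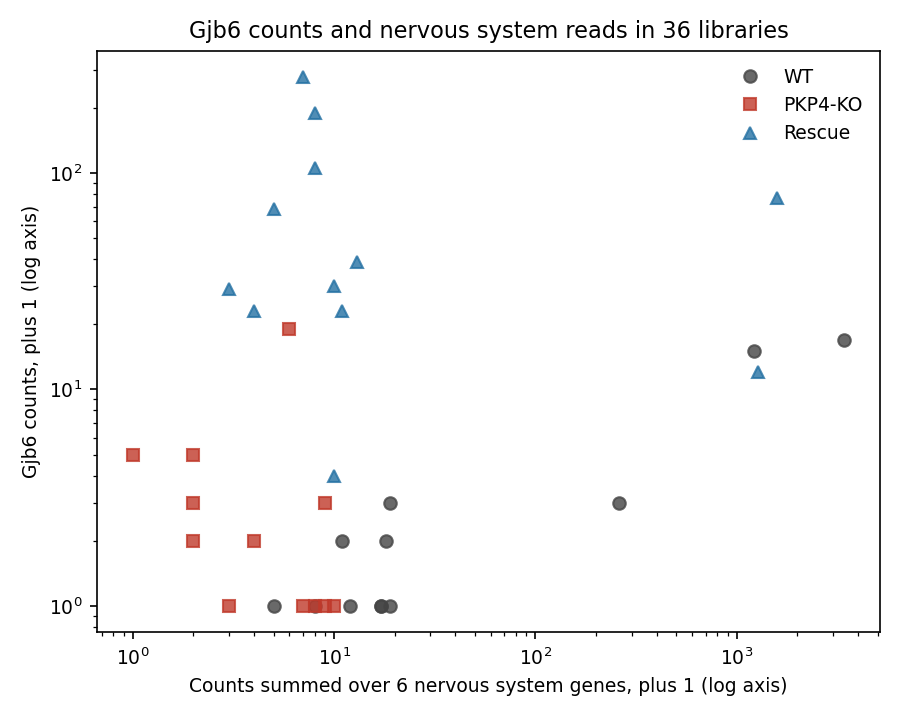
Gjb6 counts plus 1 against the summed counts of 6 nervous system genes plus 1 (both log axes) in the 36 libraries, with WT as circles, PKP4-KO as squares and Rescue as triangles. The WT libraries with 16 and 14 Gjb6 counts lie among the 5 libraries with sums of 258 to 3413, while the Rescue libraries with 105 to 276 Gjb6 counts have sums of 6 or 7.

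The part of the nervous system reads in the Gjb6 counts of WT was not tested. The 3 Rescue libraries of 72 h LCM, in which Gjb6 was highest, had nervous system sums of 6 or 7 counts, so the Rescue 72 h LCM values do not involve the 5 libraries.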

How the data were processed

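RNA of 36 keratinocyte cultures was sequenced by the study as strand-specific poly(A) libraries. The authors deposited raw read counts per gene, made per the submitters' processing notes with HISAT2 2.1.0, SAMtools 1.10 and featureCounts 2.0.0 on GRCm39. Whether counting used strand, and how reads shared by genes were treated, is not given in the sources used here. A gene length column of the same table served for levels per kb. Of 55358 gene IDs, 98.9% matched GENCODE vM39.

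Counts were tested with edgeR 4.0.16 (R 4.3.3): filterByExpr (15114 genes kept), TMM factors, 1 mean for each of 12 groups, glmQLFit and glmQLFTest, with Benjamini-Hochberg adjustment over all genes tested. Contrasts were 24 of 2 groups and 9 of calcium responses. The code was tested on simulated data. Ratios of Gjb6 are of summed counts per effective library size with exact 95% counting intervals, or bounds against a floor of 3 counts per library, and cover counting error only.

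The members, lists and tests were chosen with earlier results of these data known. The genes named were the members, other connexins and pannexins, partners called the same way in all 4 comparisons of PKP4-KO with WT, the 3 protein-coding genes most alike to each member, Pkp4 and its transgene, and differentiation genes that moved with a member. Within groups, no 2 libraries were copies of each other (chi-square per gene 7.03 to 266 over 36 replicate pairs). Pairs across groups are not covered by this check. Alternatives were DESeq2 1.42.0, no TMM factors, other filters, fits of only the groups compared, a replicate block and leaving out libraries. P-values measure the spread between these cultures. Some genes of these lists are counted but not reported here by name.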

Additional observations from a re-analysis of the deposited data

Results flagged for a closer look

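In 11 cases the calcium response of a connexin (log2 of HCM over LCM) differed between lines or times. Each was called by the test of the difference itself, edgeR's quasi-likelihood test with adjustment over 15114 genes. The cases come from 9 contrasts of the 4 members. In these contrasts 0.0662% to 31.5% of all genes were called, most in Rescue against PKP4-KO at 72 h. Gjb2 at 72 h differed by 1.24 between PKP4-KO and WT (adjusted p = 0.00771), by -2.95 between Rescue and WT (5e-08) and by -4.19 between Rescue and PKP4-KO (5.4e-11). Gjb5 at 72 h differed by -1.83 between Rescue and WT (0.000523) and by -1.94 between Rescue and PKP4-KO (0.000173). Gja1 at 24 h differed by 0.89 between PKP4-KO and WT (0.00124) and by -0.69 between Rescue and PKP4-KO (0.028).

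Between 72 h and 24 h the response of Gja1 differed by 0.63 in WT (adjusted p = 0.0249) and by -0.71 in PKP4-KO (0.00588). That of Gjb2 differed by 2.28 in PKP4-KO (1.18e-05) and by -2.16 in Rescue (5.52e-06). The differences of Rescue from PKP4-KO were added after the values were seen. With 1 library left out at a time, the Gja1 difference between Rescue and PKP4-KO at 24 h was lost in 9 of 12 fits and that between times in WT in 8 of 12.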

How the results depend on the processing

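Of 67 called log2 values, DESeq2 kept 66, the replicate block 67, no filter 60, the fit without the 5 libraries with nervous system reads 59 and no TMM factors 54. The filter of at least 10 counts in every library kept 57 of 57, and fits of only the groups compared kept 52 of 63. Gjb6 gave no value in 33 cases under that filter and in 17 of the smaller fits. Leaving out 1 library at a time kept 413 of 468.

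Replicate numbers met the pairing limit (every correlation over 0.1) in 2 of 24 comparisons, with r from -0.65 to 0.72, so the numbers were not taken as pairs. The replicate block lost no call and added Gjb6 in HCM against LCM in Rescue at 72 h (-1.997, adjusted p = 0.0476) and in Rescue against WT in 24 h HCM (2.52, 0.0422).

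Without TMM factors the median of all genes moved by over 0.1 in 24 of 33 comparisons (shift -1.06 to 1.17), and higher calls in PKP4-KO against WT in 72 h HCM went from 42.2% to 13.5% of calls. Of 57 called values of Gja1, Gjb2 and Gjb5, 55 kept their sign. Relative to that median 57 kept it, which is no separate check because a gene and the median shift together. Signs turned for Gja1 (0.54) and Gjb5 (0.13) in Rescue against PKP4-KO in 72 h HCM. Among uncalled values they turned for Gja1 in the calcium response of Rescue at 72 h (0.11) and its difference from WT (0.0903), for Gjb2 in that of WT at 24 h (-0.072), for Gjb5 over time in PKP4-KO in HCM (-0.73), and for Gjb5 in differences of response (-0.0022 between times in PKP4-KO, 0.065 and -0.21 between PKP4-KO and WT at 24 h and 72 h). Gja1 over time in PKP4-KO in HCM turned with DESeq2 (0.11), the stricter filter (0.068) and the smaller fit (0.046), and its calcium response in Rescue at 72 h with DESeq2 (0.0011) and the stricter filter (0.042). Without the 5 libraries Gjb6 turned over time in WT (3.41 in HCM, 1.65 in LCM) and in PKP4-KO against WT in 24 h HCM (2.53), and stood at 0 in PKP4-KO against WT in 24 h LCM and in the WT calcium response at 24 h. The cause was not tested.

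Counts of the 4 members called changed as follows. DESeq2 gave 2 for WT over time in LCM and 2 for the Rescue response between times, and the stricter filter 1 for Rescue over time in LCM. Without TMM factors the counts were 3 for PKP4-KO over time in HCM, 2 and 2 for WT over time in HCM and LCM, 0 for calcium in PKP4-KO at 24 h, 1 and 0 for calcium in WT at 24 h and 72 h, 1 for Rescue against WT in 24 h LCM, 0 for the WT response between times, 2 for PKP4-KO against WT responses at 72 h and 0 for Rescue against PKP4-KO responses at 24 h. With no filter they were 1 for Rescue over time in HCM and 0 for calcium in PKP4-KO at 24 h, calcium in WT at 72 h, the WT response between times and Rescue against PKP4-KO responses at 24 h. In the smaller fits they were 0 and 3 for WT over time in HCM and LCM, 0 and 1 for calcium in PKP4-KO at 24 h and 72 h, 0 for calcium in WT at 72 h, 2 and 2 for PKP4-KO against WT in LCM at 24 h and 72 h, 1 and 2 for responses between times in PKP4-KO and Rescue, and 0 for responses of PKP4-KO against WT and of Rescue against PKP4-KO at 24 h. Without the 5 libraries they were 2 for PKP4-KO over time in HCM, 1 for Rescue over time in HCM, 1 for calcium in WT at 72 h, 2 and 1 for PKP4-KO and Rescue against WT in 24 h LCM, 0 for the WT response between times and 0 for Rescue against PKP4-KO responses at 24 h.

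With 1 library left out, counts ran from 1 to 2 for Rescue over time in HCM and LCM, WT over time in LCM, calcium in PKP4-KO at 72 h and the Rescue response between times, from 0 to 2 for calcium in WT at 72 h, from 2 to 4 for PKP4-KO against WT in LCM at 24 h and 72 h, and from 0 to 1 for the WT response between times and Rescue against PKP4-KO responses at 24 h. Values that turned ran from -0.13 to 0.085 and from -0.11 to 0.0089 for Gja1 over time in HCM in PKP4-KO and WT, from -0.0755 to 0.11 for its calcium response in Rescue at 72 h, from -0.22 to 0.15 for that of Gjb5 in Rescue at 24 h and from -0.13 to 0.52 for its PKP4-KO against WT response at 72 h. For Gjb6 they ran from -2.58 to 3.42 over time in WT in HCM, -1.31 to 0.77 and -5.58 to 2.06 for calcium in PKP4-KO at 72 h and WT at 24 h, and -5.22 to 2.53 in PKP4-KO against WT in 24 h HCM. Outside Rescue the direction of Gjb6 thus rested on few reads.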
